A study of Mus musculus with 6 samples.

Results

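Isolated sites outside sparse bins are accessible sites that stand alone in chromosome regions that are otherwise moderately filled with sites. A site was counted as isolated where at least 50 kb without any other site lay on each of its sides. It also had to lie in a fixed 1 Mb bin of an autosome with more than 20 and fewer than 200 sites. Positions alone chose the sites, and no measured level entered the rule. It gave 944 of the 225604 autosomal sites, in 580 bins, out of 229903 sites in the whole table. A further 764 isolated sites lay in sparse bins of 20 sites or fewer, and no isolated site lay in a bin of 200 sites or more.

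The sites come from ATAC-Seq, in which a transposase cuts open chromatin and leaves sequencing adaptors, so that reads at a site measure its accessibility. Primary mouse embryonic fibroblasts (pMEFs) of the C57bl6 background were compared, 3 HAT1+/+ (HAT1 WT) lines with 3 HAT1-/- (HAT1 KO) lines, without treatment. They were grown from mid-gestation embryos after the internal organs had been removed, so a line can hold more than 1 cell type. The comparison asks how the absence of HAT1 changes accessibility, here at sites with no neighbour. The levels are a single mean per genotype at each site, as the log2 of normalized reads, and the values of single lines were not used here. So no SD over lines and no test between genotypes is given, and every difference below is the HAT1-/- mean minus the HAT1+/+ mean on the log2 scale. In bulk cells, a smaller share of cells with an open site and less cutting in each cell cannot be told apart.

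HAT1 is the histone acetyltransferase that acetylates newly made histone H4 before it is deposited on replicating DNA. Accessible sites are mostly promoters and enhancers, where bound transcription factors keep nucleosomes away. Regions with few genes and few such sites are often heterochromatic, and in fibroblasts the AP-1 factors (FOS and JUN dimers) occupy many of the enhancers that lie far from promoters.

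The sequences of 8 isolated sites show the kinds of sites in the set. The 3 sites with the lowest and the 3 with the highest difference are given first, among those with a mean of at least 8 normalized reads, and then the 2 of highest level, which are promoters. Sequence is from GRCm38 (mm10), in lower case, with capitals at each match to a short word listed further below. Of sites longer than 300 bases the central 300 are shown, and of the promoters a stretch free of annotated exons.
Rank 1 of the lowest, between genes, nearest to Luzp2, chr7:55291715-55291987, + strand: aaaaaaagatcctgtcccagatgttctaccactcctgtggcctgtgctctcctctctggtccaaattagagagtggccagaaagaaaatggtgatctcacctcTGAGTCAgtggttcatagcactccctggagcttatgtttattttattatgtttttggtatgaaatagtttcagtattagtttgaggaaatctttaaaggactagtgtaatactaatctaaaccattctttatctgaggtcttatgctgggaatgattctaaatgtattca
Rank 2 of the lowest, between genes, nearest to Aco1, chr4:39928470-39928769, + strand: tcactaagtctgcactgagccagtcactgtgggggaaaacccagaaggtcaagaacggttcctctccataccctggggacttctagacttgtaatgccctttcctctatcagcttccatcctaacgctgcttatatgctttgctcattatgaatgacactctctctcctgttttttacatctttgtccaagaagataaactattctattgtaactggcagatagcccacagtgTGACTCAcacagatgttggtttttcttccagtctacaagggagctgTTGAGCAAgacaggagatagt
Rank 3 of the lowest, between genes, nearest to Gm11232, chr4:71806104-71806403, + strand: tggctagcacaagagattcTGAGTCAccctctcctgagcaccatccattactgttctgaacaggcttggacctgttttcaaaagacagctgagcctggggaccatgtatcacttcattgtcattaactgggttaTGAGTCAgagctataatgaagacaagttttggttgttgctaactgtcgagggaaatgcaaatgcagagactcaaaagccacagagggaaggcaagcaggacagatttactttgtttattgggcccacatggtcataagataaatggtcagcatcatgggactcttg
Rank 1 of the highest, intron of Grm5, chr7:87666359-87666586, + strand: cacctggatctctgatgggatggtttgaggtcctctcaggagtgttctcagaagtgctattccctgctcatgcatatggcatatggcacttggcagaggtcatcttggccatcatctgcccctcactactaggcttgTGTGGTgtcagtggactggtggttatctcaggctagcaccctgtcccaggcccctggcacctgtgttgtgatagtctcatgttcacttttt
Rank 2 of the highest, between genes, nearest to Pgr, chr9:8806440-8806679, + strand: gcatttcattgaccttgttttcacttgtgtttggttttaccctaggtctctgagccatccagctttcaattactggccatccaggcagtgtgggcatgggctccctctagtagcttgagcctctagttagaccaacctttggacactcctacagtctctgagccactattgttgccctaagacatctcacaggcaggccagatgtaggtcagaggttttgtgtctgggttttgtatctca
Rank 3 of the highest, intron of Galnt13, chr2:54637857-54638132, + strand: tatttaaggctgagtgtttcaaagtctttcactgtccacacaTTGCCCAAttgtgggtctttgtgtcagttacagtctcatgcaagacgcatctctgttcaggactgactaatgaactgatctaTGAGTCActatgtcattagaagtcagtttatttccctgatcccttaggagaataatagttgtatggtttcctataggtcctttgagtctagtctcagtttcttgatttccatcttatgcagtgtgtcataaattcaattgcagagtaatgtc
Rank 1 by level, promoter of Il3ra, chr14:14345709-14346008, + strand: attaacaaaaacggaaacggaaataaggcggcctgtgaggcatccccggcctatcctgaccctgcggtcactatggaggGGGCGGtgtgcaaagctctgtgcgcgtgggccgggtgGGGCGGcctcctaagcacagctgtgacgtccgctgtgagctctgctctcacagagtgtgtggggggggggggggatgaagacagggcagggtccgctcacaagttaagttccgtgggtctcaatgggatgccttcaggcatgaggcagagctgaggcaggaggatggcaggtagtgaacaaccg
Rank 2 by level, promoter of Cstf2t, chr19:31082623-31082836, + strand: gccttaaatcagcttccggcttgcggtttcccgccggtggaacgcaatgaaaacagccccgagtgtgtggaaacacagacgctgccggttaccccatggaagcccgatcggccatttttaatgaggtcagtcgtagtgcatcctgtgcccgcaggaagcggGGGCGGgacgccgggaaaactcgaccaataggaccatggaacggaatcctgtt
All 3 of the lowest sites carry the AP-1 word in capitals, 1 of them in 2 places, and 1 of the 3 highest does. Over the 6 lowest and the 6 highest sites described below, the word is found in 5 and in 3. The promoter stretches carry GGGCGG, the word of the SP and KLF factors.

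Accessibility at the isolated sites was lower in HAT1-/- than in HAT1+/+ cells at most sites. The median difference was -0.34, with quartiles of -0.87 and 0.10, and 643 sites (68.1%) were below 0. The other 34882 sites of the same bins had a median of -0.09, the 764 isolated sites of sparse bins one of -0.65, and all autosomal sites one of -0.06. A difference of -1 or lower, a 2-fold lower level, was found at 198 isolated sites (20.97%), beside a background of 5.12% of all autosomal sites. It was found at 7.88% of the other sites of the same bins and at 39.4% of the isolated sites of sparse bins. A difference of 1 or higher was found at 34 isolated sites (3.60%), close to the background of 2.78%. With 4 reads added to each genotype mean, which damps the differences of weak sites, 10.5% of the isolated sites were at -1 or lower, 3.10% of the other sites of the same bins and 1.68% of all autosomal sites. The isolated sites thus differed from their background mainly on the lower side.

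**Figure D1:**
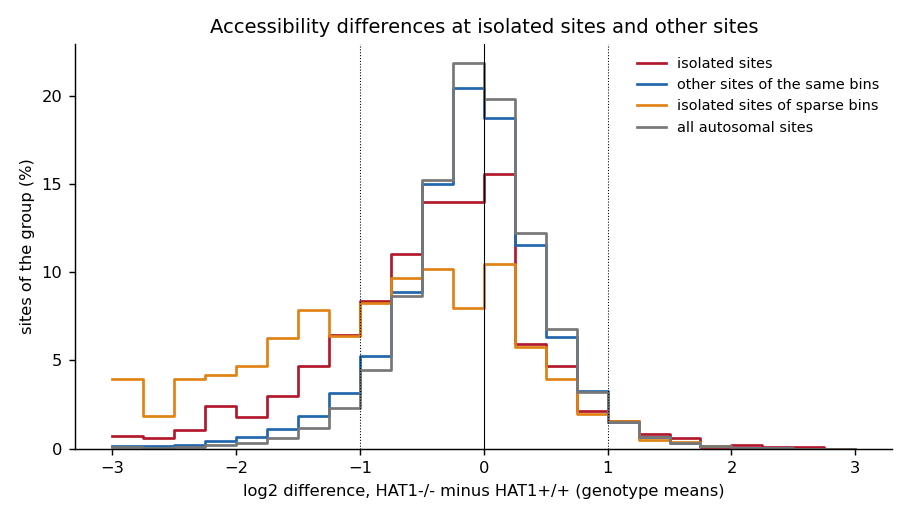
Percent of sites (y axis) by log2 difference between the genotype means (x axis, in steps of 0.25, with values past the ends of the axis in the outermost steps) for 4 groups of sites. The curve of the 944 isolated sites lies between that of the other sites of the same bins (median -0.09) and that of the isolated sites of sparse bins (median -0.65), and dotted lines mark -1 and 1.

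The isolated sites were weak. Their median level was 10.3 normalized reads in HAT1+/+ and 7.67 in HAT1-/- cells, against 14.6 and 13.8 over all autosomal sites. They were also narrower, with a median width of 205 bp against 250 bp at the other sites of the same bins and 255 bp over all autosomal sites. Per kb of width the HAT1+/+ level was 53.2 reads at isolated sites and 60.02 at the other sites of the same bins. Summed over the isolated sites, HAT1-/- cells kept 77.9% of the HAT1+/+ reads, against 93.1% at the other sites of the same bins, 55.3% at the isolated sites of sparse bins and 94.7% over all autosomal sites.

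Counting noise is large at such levels, and 30 isolated sites had a genotype mean under 1 normalized read. At 21 sites both genotypes were at the lowest value of the whole table, which is -0.61 in HAT1+/+ and -0.43 in HAT1-/- cells, and their difference of 0.18 is that of the 2 lowest values. With a mean of at least 8 normalized reads, 522 isolated sites were left, and their median was -0.43. Of these, 123 (23.6%) were at -1 or lower, beside a background of 3.95% of autosomal sites with that level. Only 5 of them (0.958%) were at 1 or higher, beside a background of 1.41%. Leaving out the weakest sites removed most of the higher sites and did not reduce the share of lower ones.

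The difference was lower at each step of level up to 32 reads. The median was 0.18 at the 73 isolated sites under 4 reads, -0.27 at 349 sites of 4 to 8, -0.42 at 295 sites of 8 to 16, and -0.48 at 141 sites of 16 to 32. At the 86 sites of 32 reads or more, where counting noise is smallest, it was -0.32. The other sites of the same bins stayed between -0.08 and -0.10 in each class from 4 reads on. Both groups had a median of 0.18 under 4 reads, the difference of the table's lowest values.

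**Figure D2:**
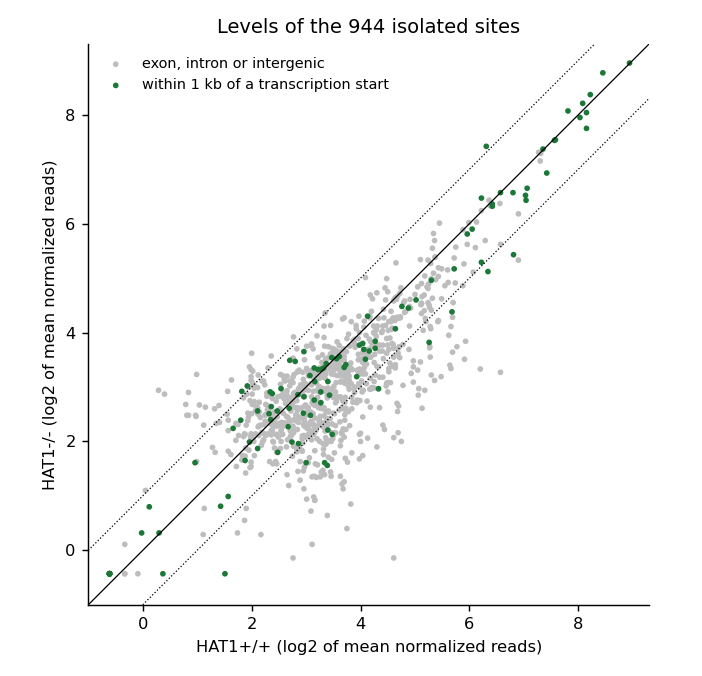
Each point is 1 of the 944 isolated sites, with its HAT1+/+ level on the x axis and its HAT1-/- level on the y axis, both as log2 of mean normalized reads. The solid line marks equal levels and the dotted lines a log2 difference of -1 and 1, and the highest levels belong to sites within 1 kb of a transcription start, which lie near the solid line.

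The lower level of isolated sites was seen along the genome. The median of the isolated sites was below 0 on 19 of 19 autosomes. So were the medians of the other sites of the same bins and of all sites of the chromosome. The median of the isolated sites was below that of all sites of the chromosome on 18 autosomes. It was below that of the other sites of the same bins on 17. It was lowest on chromosome 4, at -0.50 over 70 sites. The exceptions were chromosome 12, with -0.04 over 37 isolated sites against -0.14 in the same bins, and chromosome 14, with -0.10 over 46 against -0.11. The share of sites at -1 or lower was above that of the other sites of the same bins on 18 autosomes, and chromosome 15, with 1 such site of 23, was the exception.

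**Figure D3:**
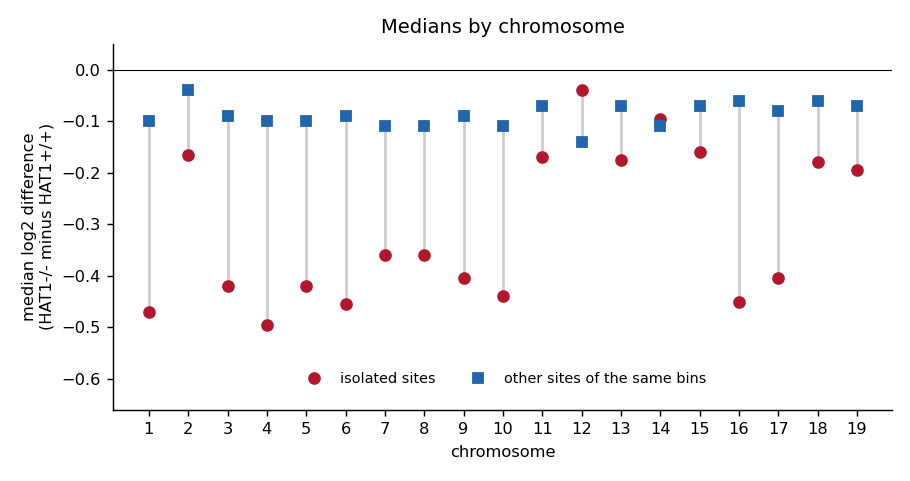
Median log2 difference (y axis) on each autosome (x axis) for the isolated sites and for the other sites of the same 1 Mb bins. The isolated sites lie below the others on 17 of 19 autosomes, and chromosomes 12 and 14 are the exceptions.

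Set against its own bin, an isolated site was lower than the median of the other sites by a median of -0.19, and 573 of 944 were below. The 2 sites that flank an isolated site, each at least 50 kb away, had a mean difference with a median of -0.33, close to that of the isolated sites themselves. The isolated site minus the mean of its flanking sites had a median of only -0.05, with 491 of 944 (52.01%) below 0. A flanking site could itself be an isolated site, and such neighbours enter both sides of this comparison, which draws its median towards 0. How many flanking sites were isolated was not counted. So the isolated sites were lower than their bins as a whole, and about level with the sites next to them, isolated ones included.

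The number of sites in the bin moved with the difference. In bins of 21 to 40 sites the 367 isolated sites had a median of -0.48, and the other sites of those bins had -0.27. In bins of 41 to 80 sites the values were -0.33 over 381 sites and -0.08. In fuller bins the 196 isolated sites had a median of -0.10 and the other sites -0.05, and the distance between the groups was least there. Around the limit of the rule, the 65 isolated sites in bins of 21 to 23 sites had a median of -0.74 and the 114 isolated sites in bins of 18 to 20 sites, which are outside, one of -0.80. The values on both sides of the limit were close.

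Distance to the nearest site moved less with the difference once a site was isolated. The median was -0.26 at the 312 isolated sites with a neighbour 50 to 60 kb away, -0.36 at 60 to 75 kb, -0.46 at 75 to 100 kb and -0.36 at the 187 sites with 100 kb or more. Among the other sites of the same bins it was -0.09 where the nearest site was under 1 kb away, -0.05 at 1 to 5 kb, -0.09 at 5 to 10 kb, -0.18 at 10 to 25 kb and -0.28 at 25 to 50 kb. From 5 kb on the medians were lower at longer distances, except from 50 to 60 kb and at 100 kb or more. Just inside the limit of 50 kb, 71 isolated sites had a median of -0.34, and 86 sites with their nearest neighbour 48 to 50 kb away had -0.34 as well.

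The neighbourhood of an isolated site was taken as the 12 sites on each side, without the site itself, which spanned a median of 0.862 Mb. A mean difference of -0.58 or lower in these sites marked a lowered neighbourhood. Such neighbourhoods held 200 isolated sites (21.2%), against 5.65% of the other sites of the same bins, 53.1% of the isolated sites of sparse bins and 2.27% of all autosomal sites. Inside them 44.5% of the isolated sites and 47.4% of the other sites of the same bins were at -1 or lower, which are close shares. Outside them 14.7% of 744 isolated sites and 5.52% of 32912 other sites were at -1 or lower. Of the 198 isolated sites at -1 or lower, 89 were in lowered neighbourhoods and 109 outside. Where the neighbourhood mean was above 0, the 118 isolated sites still had a median of -0.10 and the other sites one of 0.01.

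**Figure D4:**
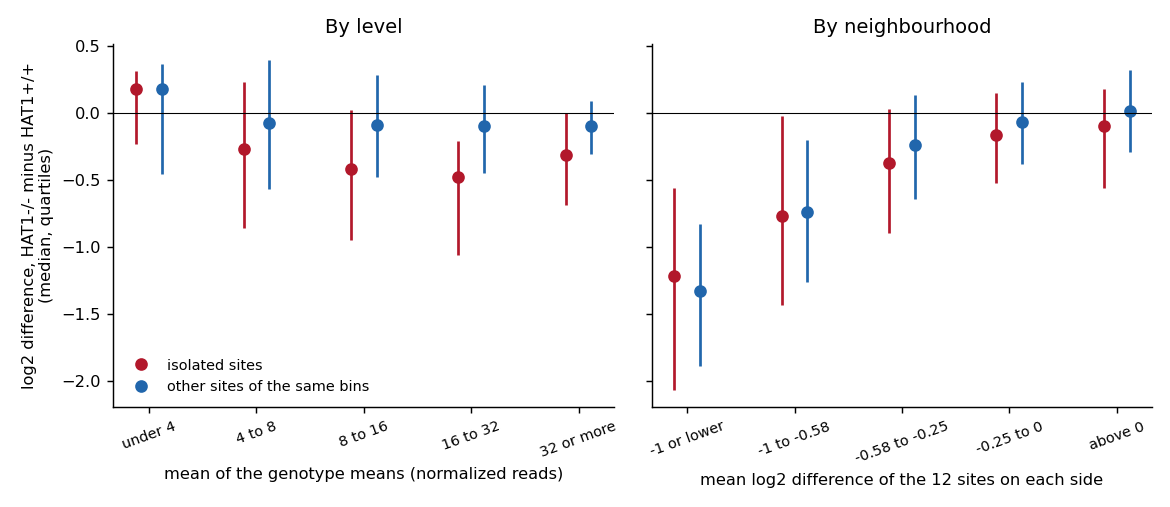
Median log2 difference (points) with quartiles (lines) by the mean level of the site (left) and by the mean difference of the 12 sites on each side (right), for isolated sites and the other sites of the same bins. Isolated sites lie lower from 4 reads on, and by neighbourhood they lie lower in the 3 classes above -0.58, with medians of -0.38 against -0.24, -0.17 against -0.07 and -0.10 against 0.01.

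Most isolated sites lay between genes. Of the 944, 579 (61.3%) were intergenic, 248 (26.3%) intronic and 8 exonic, and 109 (11.5%) lay within 1 kb of a transcription start of any gene, here called a promoter. Over all autosomal sites the shares were 34.8% intergenic, 41.4% intronic and 17.6% at promoters. The nearest start of a protein-coding gene was at a median distance of 178 kb, against 33.7 kb at the other sites of the same bins. Protein-coding genes held 236 isolated sites (25.0%, against 56.2% of all autosomal sites), spread over 179 genes. Intronic and intergenic isolated sites had the same median of -0.38, and promoters one of -0.10.

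Of the classes with more than 8 isolated sites, promoters had the median nearest to 0. Of these, 67 were promoters of genes that are not protein-coding, weak sites with a median of -0.05 and a median HAT1+/+ level of 8.40 reads. Those of protein-coding genes numbered 42 and had a median of -0.24, and the 18 with a mean of 32 reads or more had -0.09. The 57 isolated sites of that level outside promoters had a median of -0.36. Their HAT1+/+ levels had medians of 152 and 51.6 reads, so the classes were not matched in level. In the same bins, the other sites of that level had medians of -0.08 at protein-coding promoters and -0.11 outside promoters. Of the 42 protein-coding promoters, 2 (4.76%) were at -1 or lower and 1 (2.38%) was at 1 or higher. Over all autosomal protein-coding promoters the shares were 1.71% and 0.757%, and over those among the other sites of the same bins 2.73% and 0.773%. The counts are too few to set these shares apart.

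The highest isolated promoters had nearly equal levels in both genotypes. The promoter of Il3ra, the alpha chain of the interleukin 3 receptor, was the highest and the widest isolated site (chr14:14345443-14346923, 1481 bp), with 491 reads in HAT1+/+ and 495 in HAT1-/- cells, a difference of 0.01. The promoter of Cstf2t, a cleavage stimulation factor subunit in polyadenylation (chr19:31082623-31083100), had 349.7 and 437 reads, a difference of 0.32. Their sequences are the last 2 shown above, and 61.0% and 57.9% of the bases shown are G or C.

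Ufm1, which encodes a ubiquitin-like modifier, had 298 and 331 reads at its promoter (chr3:53863489-53864238), a difference of 0.15. Thoc1, a subunit of the THO complex that couples transcription to mRNA export, had 271 and 296 reads (chr18:9957756-9958638), a difference of 0.13. The fifth site by level was the promoter of 9330159M07Rik (chr9:88858514-88859368), with 284 and 263 reads and a difference of -0.11. All 5 of the highest isolated sites were promoters, and none differed by more than 0.32.

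Several of the strong promoters belong to zinc finger genes. Zfp938 had 261 and 247 reads at its promoter (chr10:82240769-82241641), a difference of -0.08. Zfp994 had 284 and 215 reads (chr17:22225118-22226064), a difference of -0.40, and the nearby Zfp947 had 171 and 122 reads (chr17:22165424-22166373), a difference of -0.49. Zfp995, in the same region, had 189 and 185 reads (chr17:21909081-21910036), a difference of -0.03. Counted after the values were seen, 9 isolated promoters belong to genes whose symbol begins with Zfp, which encode zinc finger proteins. Their differences ranged from -0.49 to 1.11 with a median of -0.04. At 1 of them, Zfp97, both genotypes were at the table's lowest value, and its 0.18 is the difference of those values. Of the 18 protein-coding promoters with a mean of 32 reads or more, 7 are among these Zfp promoters, and the share of such genes among all promoters was not computed.

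The 3 protein-coding promoters past the limit are those of Zfp951, Mei4 and Cntnap3. Zfp951 was the higher one, with 79.3 reads in HAT1+/+ and 171 in HAT1-/- cells (chr5:104859547-104860483), a difference of 1.11, with a neighbourhood mean of -0.09 and a flanking mean of 0.45. Mei4, required to form the DNA breaks of meiosis, had 112 and 43.1 reads (chr9:81863437-81864147), a difference of -1.38, and its neighbourhood mean was -1.07 and its flanking mean -1.56. Cntnap3, of the contactin-associated protein family, had 10.5 and 2.95 reads (chr13:64903927-64904130), a difference of -1.83, with a neighbourhood mean of -0.18 and a flanking mean of -1.05. So the sites next to both Mei4 and Cntnap3 were low, and the wider neighbourhood was low at Mei4.

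The 6 lowest isolated sites with a mean of at least 8 reads were all intergenic. The first of them lay on chromosome 7 (chr7:55291715-55291987), 456 kb from the nearest protein-coding start, that of Luzp2. It had 24.4 reads in HAT1+/+ and 0.908 in HAT1-/- cells, a difference of -4.75, and the HAT1-/- mean is near the table's lowest value. The other sites of its bin had a median of -0.18, the 12 sites on each side a mean of -1.02 and its 2 flanking sites one of -1.14.

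The next 2 were strong HAT1+/+ sites on chromosome 4. That nearest to Aco1, the cytosolic aconitase that also regulates iron-related mRNAs, had 95.01 and 9.65 reads (chr4:39928407-39928832), a difference of -3.30. That nearest to Gm11232 had 73.5 and 10.1 reads (chr4:71805993-71806514), a difference of -2.87. Both lay in bins whose other sites were also low, with medians of -1.62 and -1.53.

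The other 3 had lower levels. The site 292 kb from Ralyl had 26.9 and 4.00 reads (chr3:13179430-13179646), a difference of -2.75. The site on chromosome 16 (chr16:84068167-84068433) had 24.4 and 4.20 reads, a difference of -2.54, while the other sites of its bin had a median of 0.15 and the 12 sites on each side a mean of -1.16. The site nearest to Grm7, a metabotropic glutamate receptor gene, had 25.8 and 4.47 reads (chr6:110296645-110296911), a difference of -2.53, in a bin whose other sites had a median of -1.88. All 6 lay in lowered neighbourhoods, with means from -1.92 to -0.74, although the medians of their bins ran from -1.88 to 0.15.

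The highest isolated sites with a mean of at least 8 reads changed less. The site in an intron of Grm5, another metabotropic glutamate receptor gene, had 4.00 reads in HAT1+/+ and 12.3 in HAT1-/- cells (chr7:87666359-87666586), a difference of 1.62. The site nearest to Pgr, the progesterone receptor gene, had 5.13 and 11.9 reads (chr9:8806440-8806679), a difference of 1.21. A site in an intron of Galnt13, which encodes an enzyme that starts O-linked glycosylation, had 6.82 and 15.1 reads (chr2:54637857-54638132), a difference of 1.15. All 3 rest on few HAT1+/+ reads.

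Zfp951, described above, was the fourth. The fifth, on chromosome 10 (chr10:38038915-38039191) and 783 kb from the nearest protein-coding start, had 10.2 and 20.5 reads, a difference of 1.01. The sixth, in an intron of Klri1, a lectin-like receptor gene of natural killer cells, had 17.0 and 32.2 reads (chr6:129713634-129713891), a difference of 0.92. Of the 6, only Zfp951 exceeded 50 reads in either genotype.

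The most distant and the widest sites add the ends of the range. The nearest neighbour of an isolated site was at a median of 68.9 kb and at most 407 kb. That most distant site, by the pseudogene Tgif2-ps2 (chr17:40116199-40116457), had 2.69 and 1.75 reads, a difference of -0.62. The next, chr2:39874969-39875088, had 5.21 and 4.92 reads, a difference of -0.08, and chr8:53088753-53088874 had 7.84 and 7.11, a difference of -0.14. The fourth, chr17:54896300-54896812, had 36.3 and 7.67 reads, a difference of -2.24, and the fifth is the chromosome 16 site given above. The 3 weak ones of these 5 were less than 1 from 0, and the 2 stronger ones were below -2.

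Among the widest sites, besides Il3ra, was the promoter of the noncoding gene Gm4076 (chr13:85126533-85127508), 976 bp wide. It had 74.5 reads in HAT1+/+ and 88.6 in HAT1-/- cells, a difference of 0.25. The promoters of Zfp995 and Zfp947, given above, were 956 and 950 bp wide. These 4 wide promoters were within 0.49 of 0.

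Genes that held several isolated sites were long. Tmem132d, a gene of 651 kb, held 6 sites from -0.23 to 0.80, none at -1 or lower. In Agbl4, which encodes a cytosolic carboxypeptidase, 4 sites ranged from -0.78 to -0.58. In Gpc5, a glypican gene, 4 sites ranged from -1.21 to -0.01. Galnt13 held 4 sites from -1.09 to 1.15, the widest range of these 4 genes. So sites in 1 gene could share a direction, as in Agbl4 and Gpc5, or could not, as in Galnt13.

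In a list of 60 long genes of neuronal adhesion and the synapse, 19 genes held 38 isolated sites with a median of -0.90. Of these sites, 16 (42.1%) were at -1 or lower, against 20.97% over all isolated sites, 26.6% over the intronic ones and 5.12% over all autosomal sites. At 1 or higher were 0 of the 38, against 3.60%, 2.42% and 2.78% in the same order. With shares that small, 38 sites are too few to set the 0 apart. All autosomal sites in the listed genes had a median of -0.21, with 14.9% at -1 or lower, and the other sites of the same bins in these genes had -0.20, with 13.5%. Sites inside 1 gene share their neighbourhood and are not independent.

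In Dab1, which relays reelin signals in migrating neurons, 3 of 3 isolated sites were at -1 or lower. The first (chr4:103939163-103939279) had 8 reads in HAT1+/+ and 3.05 in HAT1-/- cells, a difference of -1.39. The second (chr4:104418575-104418840) had 12.6 and 6.15 reads, a difference of -1.04, and the third (chr4:104514625-104515030) had 38.6 and 13.5, a difference of -1.52. Each of these genotype pairs differs in the same direction.

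In Pcdh15, a protocadherin gene of inner ear hair cells, 3 of 3 were at -1 or lower as well. Their levels were 12.8 and 4.69 reads at chr10:73921691-73921856, a difference of -1.45. They were 12.4 and 3.78 at chr10:74038042-74038298, a difference of -1.71, and 24.4 and 11.8 at chr10:74203667-74203954, a difference of -1.05. The 4 isolated sites inside the 24 listed cadherin genes are these 3 and 1 in Cdh18, at 0.14, with a median of -1.25.

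Other genes of the neuronal list were mixed. In Csmd1 the 3 sites were at -1.29, -1.62 and 0.40, and in Csmd3 they were at -0.39, 0.95 and 0.63. The sites above 0 in these genes were weak, with 3.73, 2.93 and 2.97 reads in HAT1+/+ and 4.92, 5.66 and 4.59 in HAT1-/- cells. In Nrxn3, a presynaptic adhesion gene, 1 site was at 0 and 1 at -2.90, where the HAT1-/- mean was 0.908 reads. In Ntm both sites were at -1.36 or lower, with 9.99 and 10.4 reads in HAT1+/+ and 3.39 and 4.06 in HAT1-/- cells. The direction was shared within Dab1, Pcdh15 and Ntm, and not within Csmd1 and Csmd3, where the sites above 0 rest on few reads. Not all sites above 0 in this list were that weak. In Nkain2, 1 site was at 0.23, with 39.9 and 46.9 reads, and 1 at -1.02. In Dlg2, 1 site was at 0.16, with 9.78 and 10.9 reads, and the others at -0.86 and -0.85. Neighbourhood means were -0.69 or lower at the sites of Dab1, Pcdh15 and Csmd1, and -0.26 or higher at those of Ntm and Csmd3.

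The other lists held few isolated sites. Among 79 listed genes of developmental transcription factors, 78 of them in the annotation, 2 held an isolated site. Alx1, a homeobox gene of the face, had 39.4 and 31.1 reads at its promoter (chr10:103028200-103029040), a difference of -0.34, and Dach1 had 13.7 and 5.86 (chr14:97871099-97871307), a difference of -1.23. Among 58 fibroblast matrix and adhesion genes, 57 of them in the annotation, Adamts19 held 1 site at -1.18 and Itgbl1 held 2, at 0.14 and -0.69.

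The isolated sites lay in AT-rich DNA. The GC content of the 200 kb around a site had a median of 38.9%, against 41.6% at the other sites of the same bins and 44.2% over all autosomal sites. The difference moved with it: the median was -0.43 at the 86 isolated sites under 37% GC, -0.34 at the 685 of 37 to 41%, and -0.30 at the 167 of 41 to 46%. Only 6 isolated sites were at 46% or more. The other sites of the same bins went from -0.20 to -0.13 and -0.06 over the same 3 classes, so the isolated sites were lower in each.

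Words of transcription factor motifs were counted in the central 200 bases of each site, on both strands, a window of the same length for every site. The AP-1 word TGACTCA was found in 25.6% of the isolated sites, in 19.9% of the other sites of the same bins and in 18.5% of all autosomal sites. Outside promoters the shares were 27.4%, 21.9% and 20.4%. Outside promoters and with a mean of at least 8 reads they were 33.3%, 24.1% and 22.6%, and 36.9% at the isolated sites of sparse bins. The AP-1 share was therefore higher at isolated sites in each of these cuts.

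Without a cut on level or position, the words of RUNX, C/EBP and TEAD were found at like shares. TGTGGT of RUNX was found in 19.9% of the isolated sites and in 19.6% of all autosomal sites, TTGCNNAA of C/EBP in 9.85% and 8.73%, and ACATTCC of TEAD in 5.83% and 5.13%. Outside promoters and with a mean of at least 8 reads, the TEAD word was found in 40 isolated sites (8.71%). It was found there in 6.68% of the other sites of the same bins and 5.99% of all autosomal sites. The RUNX shares of isolated and all autosomal sites were 21.1% and 21.2% in that cut, and those of C/EBP 10.9% and 9.68%. The core of the CTCF motif was found in 32 isolated sites (3.39%), against 2.24% of all autosomal sites, a larger ratio than for the AP-1 word but on few sites. GGGCGG of the SP and KLF factors was found in 4.24% of the isolated sites and 8.61% of all autosomal sites, and outside promoters in 1.68% and 4.57%. This word was therefore less frequent at isolated sites. The words CCAATC or CCAATG of NF-Y were found in 16.1% of the isolated sites and 13.8% of all autosomal sites. TGACGTCA of CREB was less frequent at isolated sites as well, with 1 site (0.106%) against 0.443% of all autosomal sites. A match is a run of letters and does not show that a factor was bound.

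**Figure D5:**
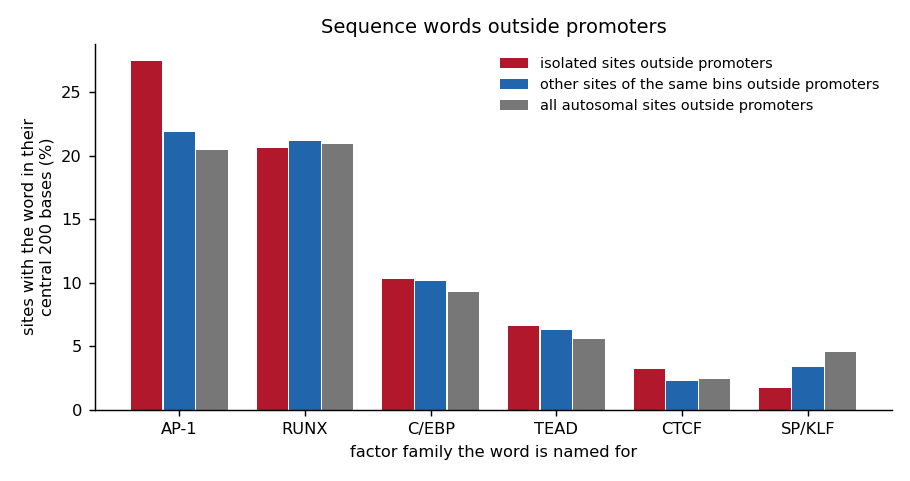
Percent of sites outside promoters (y axis) with a word of each factor family (x axis) in their central 200 bases, for isolated sites, the other sites of the same bins and all autosomal sites. The AP-1 word stands at 27.4% of the isolated sites against 21.9% and 20.4%, while the RUNX, C/EBP and TEAD bars are nearly level.

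Isolated sites with the AP-1 word anywhere in the site, 261 of them, had a median of -0.47 and those without it, 683, one of -0.30. Their levels also differed, with median HAT1+/+ levels of 13.5 and 8.94 reads. With a mean of at least 8 reads the medians were -0.51 over 192 sites and -0.40 over 330. At the other sites of the same bins the medians were -0.10 with the word and -0.08 without it. The part of level in the difference between sites with and without the word was not tested beyond this cut.

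Facts of the whole data set bear on these values as follows. The depth of each line is unknown, since only genotype means were used, and the number of reads at a site limits the precision of its value. Within 1 kb of a start, 12 of 12 fibroblast marker genes had a site, with HAT1+/+ levels of 36.0 to 626 reads. Of 12 markers of other cells 9 had one, with levels of up to 73.0, and Alb, Neurod1 and Sox10 had none, and the median level was 154 reads at the fibroblast markers and 19.97 at the others. The Hat1 gene held 3 sites, none of them isolated, with a difference of 0.21 at its promoter (207 and 239 reads), 0.48 at an intronic site (12.6 and 17.5 reads) and -2.69 at an exonic site (chr2:71421184-71421348, 22.0 and 3.41 reads). Whether the exonic site lies in the deleted part of the gene was not tested.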

How the data were processed

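ATAC-Seq was performed by the authors on 3 HAT1+/+ and 3 HAT1-/- pMEF lines. Per the labels and the methods, reads were aligned to mm10 with Bowtie2, peaks were called with MACS2 and genotypes were compared with DiffBind 2.14.0. The consensus rule and the normalization are not given in the sources used here. The authors deposited, for each site, the log2 of the mean normalized reads over the lines of each genotype. That the base is 2 was checked on the deposited overall mean. The deposited fold change, p-value and FDR columns are the authors' own comparison and were not used.

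The difference of the 2 log2 genotype means was recomputed, and normalized reads are their antilogs. Bins were fixed by the midpoint of a site. Isolation used the gap to the end of the previous and the start of the next site, and the first and last sites of the 19 autosomes, 38 in all, were not counted as isolated. Sequence came from GRCm38 (the same assembly as mm10, with site ends checked against the chromosome lengths) and genes from the GENCODE vM21 annotation. The words searched were those spelled in the text and a CTCF core of 12 bases. Scripts ran in Python 3.11.15 with numpy 2.4.6 and pandas 2.3.3, intervals came from scipy 1.17.1, and plots from matplotlib 3.10.9. Steps were tested on simulated data.

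All results are descriptions: medians, shares and counts beside those of all autosomal sites, the other sites of the same bins and the isolated sites of sparse bins. Named sites are, with a mean of at least 8 reads, the 6 lowest and the 6 highest by difference, and of all isolated sites the 5 of highest level, the 5 most distant, the 5 widest and the 6 strongest protein-coding promoters. Genes with several isolated sites, sites of the gene lists and promoters past the limit are named beside these, and 1 item is not reported here. The isolated sites, gene lists and rules were chosen with earlier results of these data known. Alternatives were tried for the isolation distance, the bins, the level, added reads, centring, the limit, the promoter distance, the word window and the neighbourhood.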

Additional observations from a re-analysis of the deposited data

How the results depend on the processing

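The results were recomputed under 12 alternatives, 2 of them chosen after seeing the data, which gave 69 values. Of these, 46 stayed inside the 95% interval of the main value over sites, 23 moved out of it and 0 reversed. Most of the values are shares, which cannot change sign, so the count of 0 says little about them. The interval is over sites, several of which can share a bin, and it does not measure the spread between lines. With an isolation distance of 25 kb the median difference of isolated sites was -0.23, the share at -1 or lower 16.2%, the difference from the bin -0.10, the HAT1+/+ level 3.47 (log2) and the share in lowered neighbourhoods 14.2%. With 100 kb the level was 3.14 and the share in lowered neighbourhoods 28.3%. Without sites under a mean of 8 reads, the median was -0.43, the share at 1 or higher 0.958%, the difference from the bin -0.25, the level 4.10 and the share with an AP-1 word 36.8%. With 4 reads added to each genotype mean, the median was -0.23, the shares at -1 or lower and at 1 or higher were 10.5% and 0.530% (1.68% and 0.325% over all autosomal sites), the difference from the bin was -0.12 and 11.3% lay in lowered neighbourhoods. That share was 17.8% with the median of all autosomal sites taken off, 13.5% with neighbourhoods of 500 kb on each side and 17.8% with 1 isolated site per bin, an alternative added later. With a limit of 0.58, 37.1% were lower and 8.37% higher (15.1% and 10.1% over all autosomal sites), and with promoters within 3 kb, 16.2% were promoters. Without promoter sites, the other later alternative, the 8 values stayed inside the interval, with a median of -0.37. For most of these the alternative itself selects other sites or another limit; beyond that the cause was not tested.

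No paired analysis was possible because the columns used hold 1 mean per genotype, and for the same reason no fit leaves out a line. At a median of 10.3 HAT1+/+ reads, a single isolated site's difference is imprecise, and its spread between lines is unknown.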

Other observations

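Sites rich in repeats were more frequent among isolated sites, inside and outside sparse bins alike. More than 50% of the bases were masked as repeats in 70 isolated sites (7.42%). The share was 7.33% at the isolated sites of sparse bins, 4.21% at the other sites of the same bins and 3.78% over all autosomal sites. The isolated sites rich in repeats had a median difference of -0.05 and a median HAT1+/+ level of 6.87 reads, and the other 874 isolated sites had -0.38 and 10.6 reads. Among the 70, 3 sites (4.29%) were at -1 or lower and 2 (2.86%) at 1 or higher. Of all autosomal sites rich in repeats, 5.95% and 5.15% were, and of such sites among the other sites of the same bins 8.45% and 5.11%. How reads with several matches in the genome were treated is not given in the sources used here, and its part in these values was not tested.

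Exons held 8 isolated sites, with a median difference of 0.25. Of these, 0 were at -1 or lower, beside 3.68% of all autosomal exonic sites, and 8 sites are too few to compare the shares. Promoters of genes that are not protein-coding held 67 isolated sites, with a median of -0.05 and a median HAT1+/+ level of 8.40 reads, against 22.1 reads at the 42 protein-coding promoters. Isolated promoters of olfactory and vomeronasal receptor genes, looked at after the values were seen, had differences of -0.43 at Olfr1313, -0.60 at Olfr398, -0.24 at Olfr1448, 0.06 at Vmn1r20 and -0.04 at Vmn1r50. At the receptor pseudogene Olfr1438-ps1 the difference was -0.15, with 66.3 reads in HAT1+/+ and 59.7 in HAT1-/- cells.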
